A study of Drosophila melanogaster with 9 samples.

Results

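The iron handling genes measured here were the 3 transferrins *Tsf1*, *Tsf2* and *Tsf3*, the 3 ferritins *Fer1HCH*, *Fer2LCH* and *Fer3HCH*, the metal transporter *Mvl* and the iron regulatory proteins *IRP-1A* and *IRP-1B*. They were found by their gene symbols in the annotation of the Affymetrix Drosophila 2.0 array, an oligonucleotide array on which each probe set, a group of short probes, gives 1 intensity. All 9 genes were on the array, with 11 of the 18769 probe sets tested, since *Tsf1* has 3 probe sets and each other gene has 1. Total RNA from the heads of untreated adult males was hybridized to 9 arrays, 3 a genotype. The genotypes were *BxJ*, which carries a gain-of-function allele of *dLmo*, *EP1306*, which carries a loss-of-function allele of that gene, and the control *w;iso*. *dLmo* is an X-linked gene for a LIM-only transcriptional regulator and appears on the array as *Bx*. Per the methods, both mutants had been outcrossed to a white-eyed stock isogenic for chromosomes II and III, and they do not say how far this replaced the X chromosome. Per the labels, flies 2 to 3 days old from 3 bottles were combined in 1 pool of 600 for each genotype and the RNA was divided in 3, whereas the methods describe 3 groups of 200 heads, so p-values measure the spread between arrays, which may be technical.

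Flies carry iron in the haemolymph on transferrin 1, encoded by *Tsf1*, which moves it between the gut and the fat body and withholds it from microbes during infection. Most stored iron sits in a secreted ferritin built of heavy chains from *Fer1HCH* and light chains from *Fer2LCH*, while *Fer3HCH* encodes a mitochondrial ferritin. Iron regulatory proteins bind iron-responsive elements, stem-loops in target mRNAs such as that of *Fer1HCH*, and so act on translation, which an array of mRNA does not read. In RNA of whole heads, a change in the number of cells that express a gene and a change in RNA per cell cannot be told apart.

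The *Bx* probe sets were named from the study's list of transcripts with altered expression in these same arrays. A change was thus selected for, though not its direction, so they are no independent check of the labels. The brighter *Bx* probe set read 676, 623 and 672 in *BxJ*, 176, 106 and 167 in *EP1306*, and 215, 202 and 115 in the control. *Bx* rose in *BxJ* (log2 difference 1.84, limma adjusted p = 0.0250), and in *EP1306* its difference of -0.21 did not pass the test (limma adjusted p = 0.818). The dimmer *Bx* probe set read 124, 157 and 156 in *BxJ*, 21.9, 22.5 and 22.4 in *EP1306*, and 38.9, 46.0 and 23.7 in the control. It rose by 1.65 in *BxJ* (limma adjusted p = 0.00905), and in *EP1306* all arrays lay below the control arrays, with a difference of -0.42 that did not pass the test (unadjusted p = 0.0370, limma adjusted p = 0.460). Heads were also marked by *trp*, *repo* and *elav*, genes of photoreceptors, glia and neurons, with mean log2 values of 13.7, 9.76 and 9.06. The medians of the arrays lay between 15.94 and 17.8, and arrays of 1 genotype correlated at 0.994 to 0.998 across probe sets. Spike-in hybridization controls, RNAs added at fixed amounts, were lower in the mutants, with mean log2 values of 8.66 to 9.57 on the *BxJ* arrays and 8.88 to 9.78 on the *EP1306* arrays, against 9.83 to 11.12 on the control arrays. The 3 probe sets of 18S rRNA were lower too, with mean log2 values of 7.83 to 9.43 on the *BxJ* arrays and 9.23 to 10.01 on the *EP1306* arrays, against 10.53 to 12.72 on the control arrays. Of all probe sets, 0.288% were called at an adjusted p under 0.05 in *BxJ* and 1.14% in *EP1306*, 1.23% differed between the mutants, and 1.49% passed the F-test over the 3 genotypes.

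Among the iron handling genes, *Tsf1* was higher in the heads of both mutants, by 1.70-fold in *BxJ* and 1.80-fold in *EP1306*, and the other 8 genes passed no test in either mutant. Its brightest probe set, 1632430_at, read 8656, 7995 and 7758 in *BxJ*, 9251, 8297 and 8386 in *EP1306*, and 5245, 4566 and 4572 in the control. All 6 mutant arrays lay above all 3 control arrays, and the lowest mutant array stood well clear of the highest control array. The means were 8137 ± 465 in *BxJ*, 8644 ± 527 in *EP1306* and 4795 ± 390 in the control (SD, n = 3 each). On the log2 scale of the intensity plus 16, *Tsf1* rose by 0.76 in *BxJ* (standard error 0.07, 95% interval 0.60 to 0.93, limma adjusted p = 0.00604) and by 0.85 in *EP1306* (standard error 0.07, 95% interval 0.68 to 1.02, limma adjusted p = 0.00161). *EP1306* and *BxJ* overlapped, and the difference between them was 0.09 (95% interval -0.08 to 0.25, limma adjusted p = 0.749). The exact permutation test gave p = 0.1 for each mutant against the control, two-sided, the smallest value that 3 arrays against 3 allow, and p = 0.0107 for the F statistic over the 280 splits into 3 genotypes. In 9 of 9 fits that left out 1 array *Tsf1* kept its call in each mutant, with adjusted p up to 0.0392 in *BxJ* and 0.0124 in *EP1306* (limma). It was thus 1 of 9 genes called in each mutant, in a background of 0.144% of probe sets called higher in *BxJ* and 0.453% in *EP1306*.

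**Figure D1:**
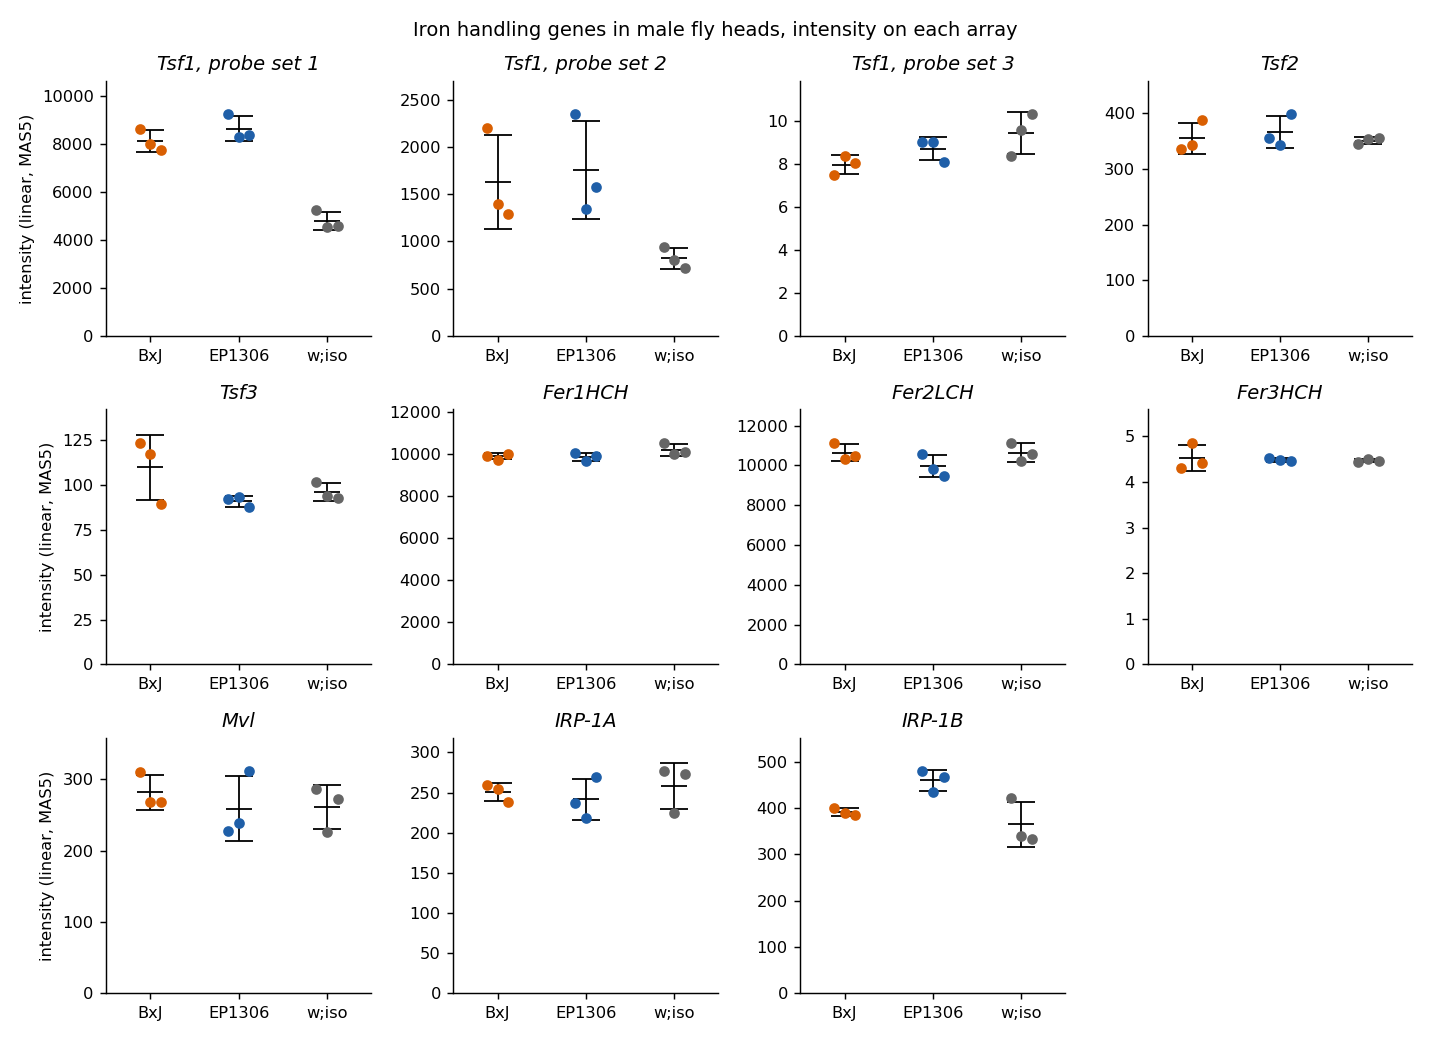
Intensity of each probe set of the 9 iron handling genes (vertical axis, linear, from 0) on each array of *BxJ*, *EP1306* and *w;iso*; points are arrays, and bars are the mean and SD of 3. *Tsf1* probe set 1 lay between 7758 and 9251 on the 6 mutant arrays, above the 4566 to 5245 of the *w;iso* arrays, while the genotypes overlapped for *Tsf2*, *Tsf3*, the ferritins, *Mvl* and *IRP-1A*.

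The second *Tsf1* probe set, 1639442_a_at, which the study's annotation ties to transcript CG6186-RB where the first is tied to CG6186-RA, read 2200, 1395 and 1291 in *BxJ*, 2344, 1347 and 1575 in *EP1306*, and 944, 802 and 719 in the control. Again every mutant array lay above every control array, but replicate 1 of each mutant stood far above its other arrays. Replicate 1 was the highest control array too. The coefficient of variation was 30.6% in *BxJ*, 29.8% in *EP1306* and 13.8% in the control, against 5.72%, 6.10% and 8.14% on the first probe set. The log2 differences were 0.94 in *BxJ* (95% interval 0.37 to 1.51, limma adjusted p = 0.238) and 1.05 in *EP1306* (95% interval 0.48 to 1.62, limma adjusted p = 0.122), so neither passed the test, and both intervals hold the difference seen on the first probe set. With the spike-in controls as a covariate the differences were 0.44 in *BxJ* and 0.61 in *EP1306* (limma adjusted p = 0.843 and 0.700). With the replicate number as a block both passed the test (limma adjusted p = 0.0412 and 0.0123), and with dim probe sets filtered out the *EP1306* difference did (limma adjusted p = 0.0376). The third probe set, 1640934_at, read 7.49 to 8.37 in *BxJ*, 8.11 to 9.05 in *EP1306* and 8.40 to 10.3 in the control, below the median of every array, and carries no usable level.

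*Tsf2* encodes a transferrin that sits in the septate junctions of epithelia. Its probe set, 1628943_at, read 335, 342 and 387 in *BxJ*, 355, 343 and 398 in *EP1306*, and 344, 353 and 355 in the control. The genotypes overlapped. Its log2 differences were 0.01 in *BxJ* (95% interval -0.16 to 0.19, limma adjusted p = 0.940) and 0.05 in *EP1306* (95% interval -0.12 to 0.23, limma adjusted p = 0.854), intervals that lie wholly below that of *Tsf1*. *Tsf3* (1633017_at) is the least studied of the family, with 123, 117 and 89.3 in *BxJ*, 91.9, 93.0 and 87.4 in *EP1306*, and 102, 93.5 and 92.7 in the control. A pair of *BxJ* arrays were the brightest of all 9 and the third was among the dimmest. Its log2 differences were 0.16 in *BxJ* (95% interval -0.11 to 0.43) and -0.07 in *EP1306* (95% interval -0.33 to 0.20), and neither passed the test (limma adjusted p = 0.526 and 0.878).

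The chains of the secreted ferritin varied little from array to array. *Fer1HCH* (1633034_s_at), the heavy chain with the ferroxidase site, read 9915, 9736 and 10019 in *BxJ*, 10050, 9653 and 9901 in *EP1306*, and 10540, 10000.5 and 10108 in the control. *Fer2LCH* (1636186_s_at), the light chain, read 11123, 10299 and 10484 in *BxJ*, 10588, 9815 and 9488 in *EP1306*, and 11137, 10237 and 10565 in the control. For both chains the arrays of the 3 genotypes overlapped. The 95% interval of the *Fer1HCH* difference ran from -8.50% to 2.47% in *BxJ* and from -8.71% to 2.23% in *EP1306* (limma adjusted p = 0.541 and 0.704). For *Fer2LCH* the interval ran from -8.44% to 9.01% in *BxJ* and from -14.3% to 2.09% in *EP1306* (limma adjusted p = 0.992 and 0.660). By comparison, the intervals for *Tsf1* were 51.2% to 90.3% in *BxJ* and 60.6% to 102% in *EP1306*. *Fer1HCH* and *Fer2LCH* lie on chromosome arm 3R, where their annotated spans overlap. Both probe sets bear the suffix that Affymetrix gives to probes shared by more than 1 transcript. *Fer3HCH* (1631593_at), the mitochondrial ferritin, read 4.31 to 4.86 in *BxJ*, 4.45 to 4.52 in *EP1306* and 4.45 to 4.49 in the control, below the median of every array, so its differences of 0.00 carry no information on its level in heads.

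*Mvl* encodes a divalent metal transporter of the Nramp family, known from the altered taste behavior of its mutants. It read 310, 268 and 268 in *BxJ*, 227, 238 and 311 in *EP1306*, and 286, 226 and 272 in the control (1624392_s_at). The spread within each genotype exceeded the differences between them, which were 0.11 in *BxJ* (95% interval -0.20 to 0.41, limma adjusted p = 0.689) and -0.02 in *EP1306* (95% interval -0.32 to 0.29, limma adjusted p = 0.976).

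The regulators differed in pattern from each other. *IRP-1A* (1627562_at), the member that binds iron-responsive elements in flies, read 259, 254 and 238 in *BxJ*, 236, 219 and 269 in *EP1306*, and 277, 225 and 273 in the control, with overlapping genotypes. Its log2 differences were -0.04 in *BxJ* (95% interval -0.27 to 0.20) and -0.09 in *EP1306* (95% interval -0.32 to 0.14), with limma adjusted p = 0.875 and 0.816. *IRP-1B* (1640650_at), a close relative with aconitase activity, read 401, 390 and 385 in *BxJ*, 480, 435 and 467 in *EP1306*, and 422, 341 and 333 in the control. Every *EP1306* array lay above every array of the other genotypes, while *BxJ* and the control overlapped. In *EP1306* its difference from the control was 0.33 (standard error 0.09, 95% interval 0.12 to 0.53, limma adjusted p = 0.189), and its difference from *BxJ* was 0.22 (95% interval 0.02 to 0.43, limma adjusted p = 0.431), so neither passed the test across all probe sets. Without control replicate 1, which read 422, the difference from the control was 0.43 and passed it (limma adjusted p = 0.0232). With the spike-in controls as a covariate it was 0.12 (limma adjusted p = 0.760). The *BxJ* difference from the control was 0.10 (95% interval -0.10 to 0.31, limma adjusted p = 0.574).

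**Figure D2:**
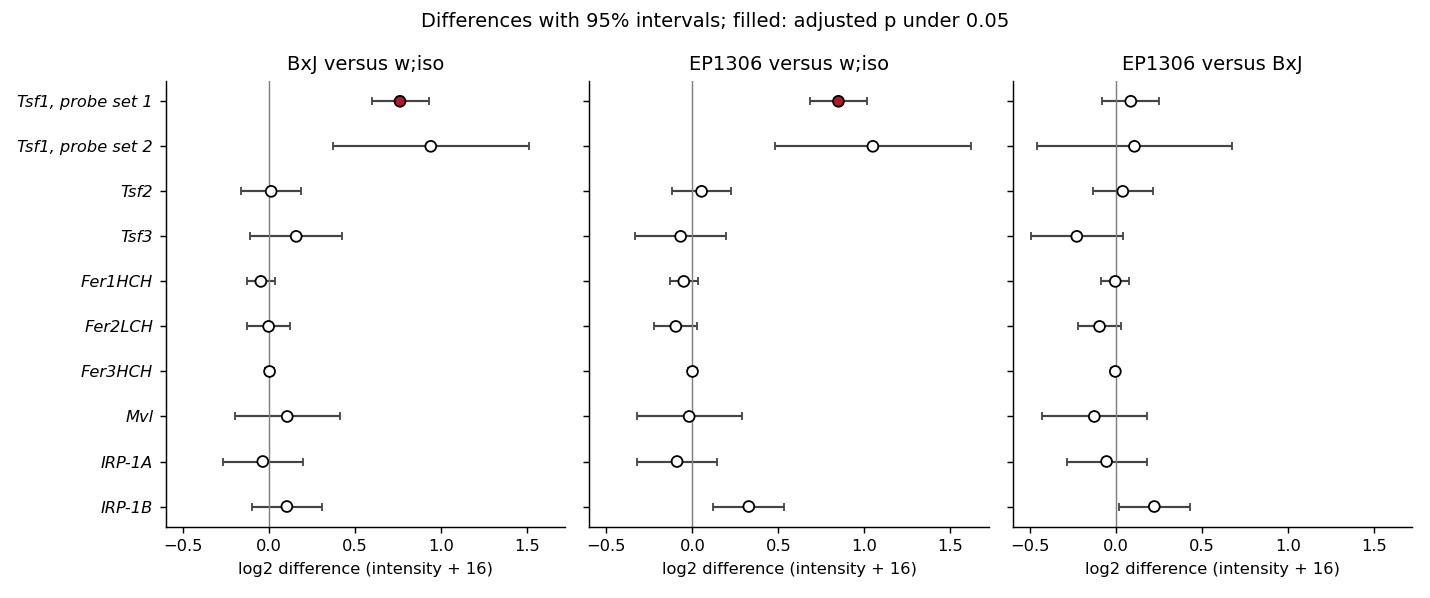
Log2 difference of intensity plus 16 (horizontal axis) for the iron handling genes in *BxJ* versus *w;iso*, *EP1306* versus *w;iso* and *EP1306* versus *BxJ*, with 95% intervals from limma; filled points passed an adjusted p under 0.05, and the third *Tsf1* probe set is left out. *Tsf1* stood at 0.76 in *BxJ* and 0.85 in *EP1306*, and *IRP-1B* had the next largest difference in *EP1306*, 0.33.

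Counted together, 1 of the 9 genes was called in *BxJ*, 1 in *EP1306*, 0 between the mutants and 1 by the F-test, by limma. At an unadjusted p under 0.05 the counts were 1 in *BxJ*, 2 in *EP1306* and 1 between the mutants, where 12.1%, 9.8% and 10.2% of all probe sets had such a p. The median log2 difference of the 9 genes was 0.01 in *BxJ* and -0.02 in *EP1306*, and that of all probe sets was -0.02 and -0.01. Arrays did not overlap for 1 of 9 genes in *BxJ* versus the control, for 2 of 9 in *EP1306* versus the control and for 1 of 9 in *EP1306* versus *BxJ*, while over all probe sets the shares were 31%, 12.3% and 17.4%. A lack of overlap alone therefore set no gene apart, and the call of *Tsf1* rests on the size of its difference against its spread.

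Over the 9 arrays, the probe sets whose log2 values followed *Tsf1* most closely, among 6959 with a mean log2 of at least 6, were those of *Drs*, *BomS5*, *BomS2*, *kek5* and *Hpd*, with Pearson r of 0.994, 0.973, 0.972, 0.969 and 0.966. *Drs* encodes the antifungal peptide drosomycin and the bomanins are short peptides secreted in the immune response, while *kek5* encodes a cell surface protein bearing leucine-rich repeats and *Hpd* an enzyme of tyrosine breakdown. The arrays fall into mutants and control, so these correlations mostly restate the genotype difference, and they are given with no test. *Drs* was singled out as the closest of 6959 probe sets over these same arrays, so the order of the arrays within a genotype is a description too. *Drs* ranked the 3 arrays in the same order as *Tsf1* in 3 of 3 genotypes, with 5433, 5061 and 3790 in *BxJ*, 6395, 3751 and 5226 in *EP1306*, and 866, 471 and 498 in the control. In the control that order rests on *Tsf1* intensities of 4566 and 4572 in replicates 2 and 3. For both genes replicate 1 was the brightest array of every genotype. *BomS5*, *BomS2* and *Hpd* had the same order as *Tsf1* in 2 of 3 genotypes, and *kek5* in 0. The second *Tsf1* probe set, *Fer1HCH*, *IRP-1A* and *IRP-1B* also had it in 2 of 3.

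**Figure D3:**
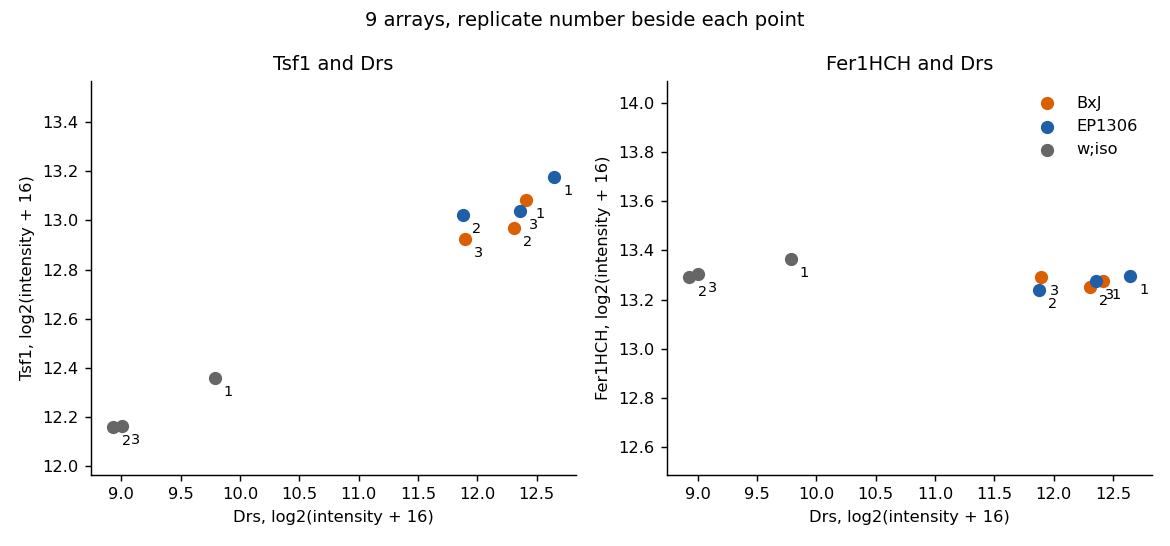
Log2 of the intensity plus 16 for *Tsf1* (left) and *Fer1HCH* (right) on the vertical axis against *Drs* on the horizontal axis, 1 point an array, with its replicate number. *Drs* and *Tsf1* were both higher on all 6 mutant arrays and their arrays stood in the same order within 3 of 3 genotypes, while *Fer1HCH* stayed within 9653 to 10540 in intensity.

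*Drs* differed more than *Tsf1*, by 2.97 in *BxJ* and 3.05 in *EP1306* on the log2 scale (limma adjusted p = 0.00502 and 0.00185). With the spike-in controls as a covariate the *Drs* difference was 2.26 in *BxJ* (limma adjusted p = 0.235) and 2.43 in *EP1306* (limma adjusted p = 0.0481). *DptB*, which encodes an antibacterial diptericin, read 1965, 1545 and 1141 in *BxJ*, 815, 485 and 680 in *EP1306*, and 192, 84.8 and 66.9 in the control. It rose in both mutants (log2 differences 3.67 in *BxJ* and 2.46 in *EP1306*, limma adjusted p = 0.00662 and 0.0178). With the spike-in controls as a covariate these differences were 2.61 and 1.53 and neither passed the test (limma adjusted p = 0.210 and 0.214). In fits of only the genotypes compared the adjusted p from limma was 0.0808 in *BxJ* and 0.0657 in *EP1306*, and without the 3 arrays richest in accessory gland transcripts it was 0.0526 and 0.213. Its *EP1306* arrays lay below its *BxJ* arrays, where those of *Tsf1* overlapped, but that difference of -1.21 missed the threshold (limma adjusted p = 0.253). Of 6 measured genes among 13 for antimicrobial peptides, 2 rose and 0 fell in each mutant, *Drs* and *DptB*. The others had positive differences that did not pass the test, led by the antifungal peptide gene *Mtk* at 1.68 in *BxJ* (limma adjusted p = 0.139) and 1.27 in *EP1306* (limma adjusted p = 0.192).

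The fat body is the main source of *Tsf1* and of antimicrobial peptides, and the markers of that tissue were examined beside the result. Of 6 fat body genes, 0 were called in either mutant by limma, and 1 in *BxJ* and 0 in *EP1306* had an unadjusted p under 0.05. Their mean log2 value ranged over the arrays from 9.32 to 9.41 in *BxJ*, 9.17 to 9.31 in *EP1306* and 8.91 to 9.38 in the control, and their summed intensity from 23180 to 24355, 21435 to 23636 and 18532 to 24122. Their part in the *Tsf1* difference was not tested. *Fbp1* and *Fbp2*, larval fat body genes, sat near the lowest log2 values, at 4.64 and 4.53. *Lsp2*, a storage protein gene of the fat body, read 1519, 1492 and 986 in *BxJ*, 924, 660 and 701 in *EP1306*, and 1045, 553 and 291 in the control (log2 differences 1.21 and 0.43, limma adjusted p = 0.345 and 0.761). Of 7 haemocyte genes, *Col4a1*, a collagen chain, fell by 0.36 in *EP1306* (limma adjusted p = 0.0251) and 0 were called in *BxJ*. At an unadjusted p under 0.05 the counts were 1 in *BxJ* and 3 in *EP1306*, against 12.1% and 9.8% of all probe sets. The median of the 7 was 0.13 in *BxJ* and -0.22 in *EP1306*, where 4 differences were negative and 3 positive. Of 8 midgut genes, 0 were called in either mutant by limma (1 in *BxJ* and 0 in *EP1306* at an unadjusted p under 0.05), with mean log2 values over the arrays of 5.50 to 6.40 in *BxJ*, 4.93 to 5.12 in *EP1306* and 5.04 to 6.44 in the control. Of 4 neuron genes, 0 were called by limma, but 4 of 4 had negative differences in each mutant. Over all probe sets, 12602 of 18769 had negative differences in *BxJ* and 11971 in *EP1306*. The median of the 4 neuron genes was -0.32 in *BxJ* and -0.13 in *EP1306*, and 2 in *BxJ* and 1 in *EP1306* had an unadjusted p under 0.05. Their mean log2 value ranged from 8.74 to 8.94 in *BxJ*, 9.05 to 9.12 in *EP1306* and 8.99 to 9.46 in the control, and their part in the result was not tested. Of 5 muscle genes, 0 were called in *BxJ* and 1, *Act88F*, was called lower in *EP1306*. The mean log2 value of the 5 was 10.56 on *BxJ* replicate 3 and 10.71 on *EP1306* replicate 3. On the other arrays it ran from 9.50 to 9.75, and the part of muscle was not tested. The spike-in controls and 18S rRNA moved the other way from *Tsf1*, and the part of 18S rRNA was not tested. With the mean of the spike-in controls as a covariate the *Tsf1* difference was 0.60 in *BxJ* (limma adjusted p = 0.272) and 0.70 in *EP1306* (limma adjusted p = 0.0453). Male accessory gland transcripts, which mark material from outside the head, were richest on *BxJ* replicate 3, *EP1306* replicate 1 and control replicate 2. Of 11 such genes 0 were called by limma, but 11 of 11 had positive differences in *BxJ*, with a median of 2.11, and 8 had an unadjusted p under 0.05. In *EP1306* the median was 0.17 and 0 had such a p. Their summed intensity ranged from 945 to 5282 in *BxJ*, 128 to 1292 in *EP1306* and 124 to 1119 in the control. Without those 3 arrays the difference was 0.76 in *BxJ* (limma adjusted p = 0.0479) and 0.77 in *EP1306* (limma adjusted p = 0.0542).

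*Tsf1* lies on the X chromosome, as *Bx* does, with 21 protein-coding genes between them in the RefSeq gene order. Of these, 17 were measured and 0 were called in either mutant by limma (1 in *BxJ* and 2 in *EP1306* at an unadjusted p under 0.05), with log2 differences of -0.15 (*Pgant7*) to 0.45 (*Hayan*) in *BxJ* and -0.26 (*HisRS*) to 0.30 (*Hayan*) in *EP1306*. The direct neighbors of *Tsf1* are *betaCOP*, which encodes a vesicle coat protein, with log2 differences of 0.12 in *BxJ* and 0.04 in *EP1306*, and *Nt5b*, a nucleotidase gene, with 0.03 in *BxJ* and -0.17 in *EP1306*. Within 25 genes on each side of *Tsf1*, with *Bx* and *Tsf1* left out, 43 of 49 genes were measured and 0 were called (5 in *BxJ* and 3 in *EP1306* at an unadjusted p under 0.05, against 12.1% and 9.8% of all probe sets), and the smallest adjusted p from limma was 0.0975 in *BxJ* and 0.0890 in *EP1306*. *Hayan* and its neighbor *psh* encode serine proteases upstream of the Toll receptor, whose targets include *Drs*. The *psh* differences were 0.42 in *BxJ* and 0.24 in *EP1306*, and neither passed the test (limma adjusted p = 0.459 and 0.766). Elsewhere on the X chromosome, *kek5* read 122, 141 and 147 in *BxJ*, 143, 146 and 166 in *EP1306*, and 11.5, 12.1 and 11.3 in the control. It was called higher in both mutants (log2 differences 2.46 in *BxJ* and 2.60 in *EP1306*, limma adjusted p = 0.00012 and 1.58e-05). An effect of the *dLmo* alleles on *Tsf1* and an X-linked difference between the lines cannot be told apart in this design.

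**Figure D4:**
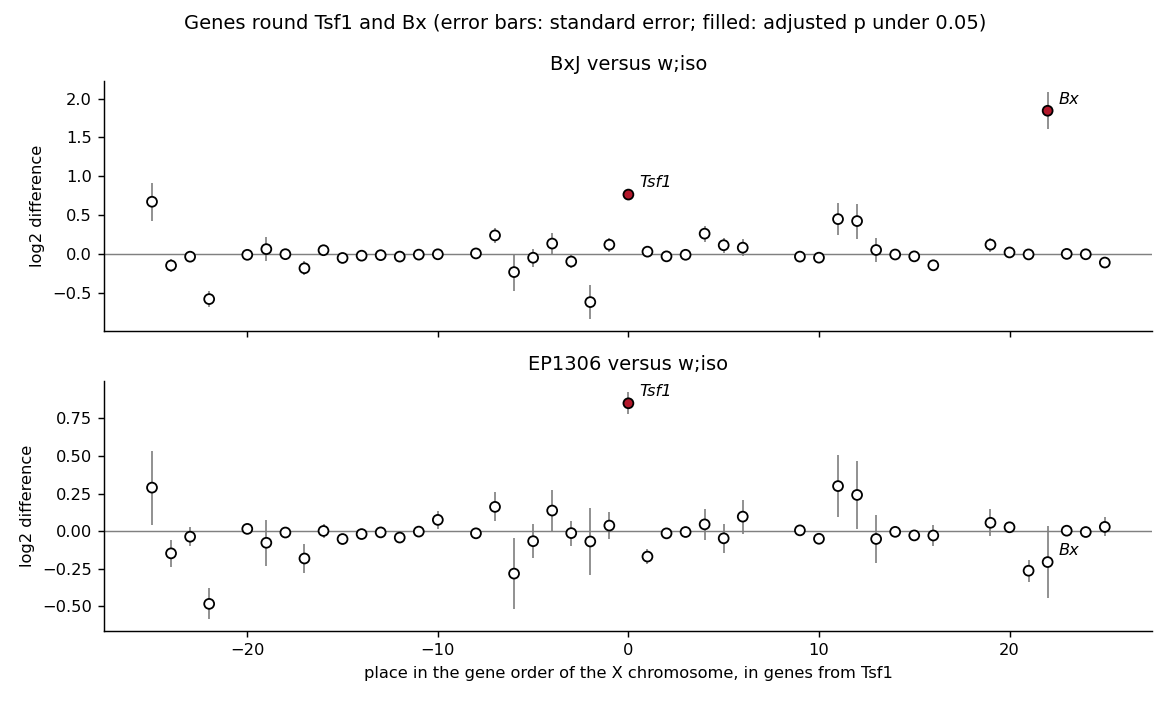
Log2 difference (vertical axis) of each measured gene round *Tsf1* on the X chromosome, in *BxJ* versus *w;iso* (top) and *EP1306* versus *w;iso* (bottom), by its place in the gene order counted from *Tsf1* (horizontal axis); bars are standard errors and filled points passed an adjusted p under 0.05. *Tsf1* stood out at 0.76 and 0.85, *Bx* at place 22 rose by 1.84 in *BxJ*, and 0 of the other 43 genes were called.

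Beyond the 9 genes, 32 of 35 further genes of iron metabolism were measured, and 0 of them were called in *BxJ* and 1, *Ciao1*, in *EP1306*. Their median log2 difference was -0.07 in *BxJ* and -0.04 in *EP1306*. An unadjusted p under 0.05 (limma) was found for 3 and 4 of them, against 12.1% and 9.8% of all probe sets. *Ciao1*, which encodes a factor that hands iron-sulfur clusters to cytosolic and nuclear proteins, read 356, 333 and 330 in *EP1306*, against 501, 484 and 531 in *BxJ* and 549, 494 and 569 in the control. All *EP1306* arrays lay below all other arrays. *Ciao1* fell by 0.64 in *EP1306* relative to the control (limma adjusted p = 0.00382), and by 0.55 relative to *BxJ* (standard error 0.07, limma adjusted p = 0.00801). With the spike-in controls as a covariate, the *EP1306* difference from the control was again -0.64 and no longer passed the test (limma adjusted p = 0.105). In *BxJ* its difference was -0.08 (limma adjusted p = 0.555). It is thus a gene on which the mutants parted, where *Tsf1* moved the same way in both.

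The other 12 measured genes of iron-sulfur cluster assembly passed no test. With *Ciao1*, 3 of 13 had an unadjusted p under 0.05 in each mutant, against 12.1% and 9.8% of all probe sets. Differences were negative for 11 of 13 in *BxJ* and 9 of 13 in *EP1306*. Over all probe sets, differences were negative for 12602 of 18769 in *BxJ* and 11971 in *EP1306*. The mean log2 value of the 13, *Ciao1* included, ranged from 8.50 to 8.51 in *BxJ*, 8.45 to 8.56 in *EP1306* and 8.57 to 8.64 in the control. Every mutant array thus lay below every control array, but in *EP1306* only narrowly, with 8.559 on replicate 3 against 8.567 on control replicate 2. *Ciao1* is part of that mean, and the mean of the other 12 was not computed, so no shift of the whole list is claimed. Single probe sets had arrays that did not overlap with the control in 31% of cases in *BxJ* and 12.3% in *EP1306*. No such share was computed for means of 13 genes. The scaffold gene *IscU* read 4288, 4081 and 4478 in *BxJ*, 4575, 4645 and 4843 in *EP1306*, and 4708, 4790 and 4915 in the control, with log2 differences of -0.17 in *BxJ* and -0.04 in *EP1306* (limma adjusted p = 0.244 and 0.835). *MagR*, a cluster carrier, had log2 differences of -0.15 in *BxJ* and -0.21 in *EP1306* (limma adjusted p = 0.422 and 0.288). The frataxin gene *fh*, which supports cluster assembly in mitochondria, had -0.04 in *BxJ* and 0.02 in *EP1306*. Among 7 genes of iron transport and reduction, 0 were called by limma (0 in *BxJ* and 1 in *EP1306* at an unadjusted p under 0.05). The log2 differences of the ferroxidase gene *Mco1* were 0.19 in *BxJ* and -0.14 in *EP1306*, and those of *nemy*, which encodes a cytochrome b561 reductase, were -0.02 in *BxJ* and 0.20 in *EP1306* (adjusted p from 0.433 to 0.923, limma). Those of *mfrn*, which imports iron into mitochondria, were -0.07 in *BxJ* and 0.02 in *EP1306*. *Zip99C*, which moves iron into the secretory pathway where ferritin is loaded, had -0.15 in *BxJ* and -0.05 in *EP1306*. Of 7 genes of heme synthesis, 0 were called by limma in either mutant against the control, also at an unadjusted p under 0.05, and *Alas*, the first enzyme of the path, had log2 differences of 0.09 in *BxJ* and 0.12 in *EP1306*. Of 5 genes for iron-sulfur proteins of respiration, the citric acid cycle and the mitochondrial membrane, 0 were called by limma in either mutant against the control, also at an unadjusted p under 0.05. Their log2 differences ran from -0.13 to 0.05 in *BxJ* and from -0.16 to 0.03 in *EP1306*. *SdhB*, the iron-sulfur subunit of succinate dehydrogenase whose mRNA bears an iron-responsive element, had 0.00 in *BxJ* and 0.03 in *EP1306*.

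Genes for other metals and for the handling of peroxide, which iron can turn into radicals, were set beside these. Of 27 measured genes of copper and zinc, 0 were called in either mutant by limma. At an unadjusted p under 0.05 there were 2 in *BxJ* and 5 in *EP1306*, against 12.1% and 9.8% of all probe sets. *Zip102B*, a zinc transporter gene, read 167, 50.1 and 50.2 in *BxJ*, 9.49, 10.1 and 10.8 in *EP1306*, and 9.46, 9.40 and 8.73 in the control. The *BxJ* arrays stood apart from the others, with 167 far above 50.1 and 50.2, and the log2 difference of 1.88 did not pass the test (limma adjusted p = 0.103). The metallothionein gene *MtnD* had log2 differences of 0.21 in *BxJ* and -0.47 in *EP1306*, and the copper chaperone gene *Atox1* had -0.26 in *BxJ* and -0.20 in *EP1306*, with adjusted p of 0.179 to 0.486 from limma. Of 13 measured antioxidant genes, 2 in *BxJ* and 5 in *EP1306* had an unadjusted p under 0.05, against 12.1% and 9.8% of all probe sets (limma). After adjustment 0 were called in *BxJ* and 1 rose in *EP1306*, the peroxiredoxin gene *Prx6c*. It read 482, 399 and 448 in *EP1306*, against 237, 261 and 282 in *BxJ* and 183, 195 and 152 in the control. *Prx6c* rose by 1.25 in *EP1306* relative to the control (limma adjusted p = 0.00177). With the spike-in controls as a covariate that difference was 1.22 (limma adjusted p = 0.0715), and near-identical copies of the gene may share its probes. In *BxJ* its difference was 0.52 (limma adjusted p = 0.147). *Sod2*, the mitochondrial superoxide dismutase, had log2 differences of -0.10 in *BxJ* and -0.27 in *EP1306* (limma adjusted p = 0.457 and 0.073), and *Gtpx*, a glutathione peroxidase, had -0.17 in *BxJ* and -0.27 in *EP1306* (limma adjusted p = 0.364 and 0.101).

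**Figure D5:**
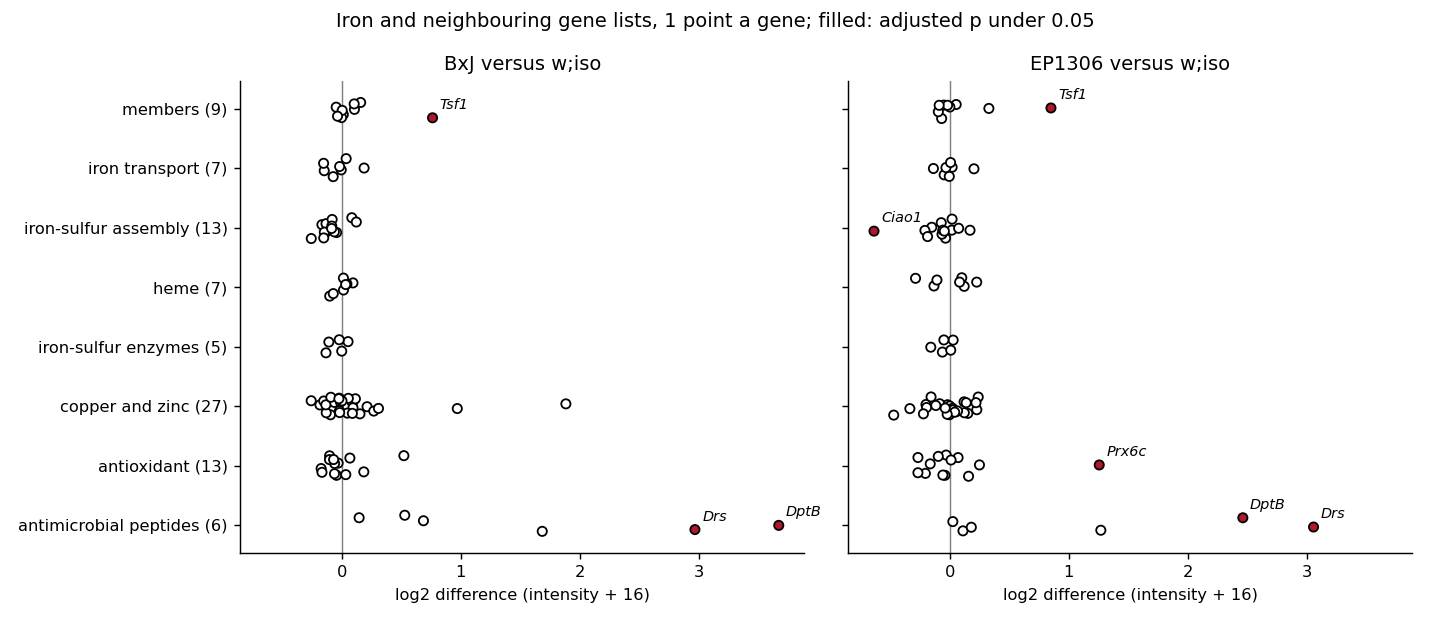
Log2 difference (horizontal axis) of each measured gene in the 9 iron handling genes and 7 lists of related genes, in *BxJ* versus *w;iso* (left) and *EP1306* versus *w;iso* (right), 1 point a gene with the number of genes in brackets; filled, named points passed an adjusted p under 0.05. *Tsf1* at 0.76 and 0.85 was the only filled point of its list, *Ciao1* stood at -0.64 and *Prx6c* at 1.25 in *EP1306*, and *Drs* and *DptB* were filled in both mutants.

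The genes that followed other members most closely were on no iron list. For *IRP-1B*, the highest Pearson r over the 9 arrays were those of *Dh44-R2*, *l(2)SH0834*, *CG1416*, *CG30423* and *Pex5*, from 0.964 to 0.979. For *Fer2LCH* they were those of *Cyp309a2*, *CG13737*, *ClpP*, *Cyp6a13* and *CG7054*, from 0.919 to 0.938. None of these 10 genes was called in either mutant against the control by limma, and they are a description with no test.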

How the data were processed

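Per the labels' processing notes, MAS5 (version not given) produced the values, and the authors deposited them as linear intensities, 1 a probe set. The sources used here give no further scaling step. The analysis took log2(intensity + 16) and set aside 183 control probe sets. No scaling between arrays was applied, since their medians differed by 0.0818 at most on that scale. All 9 arrays entered 1 fit, with a mean per genotype, by lmFit, contrasts.fit and eBayes (limma 3.58.1, R 4.3.3, with the intensity trend). Benjamini-Hochberg adjustment ran over all 18769 probe sets, and the threshold was 0.05, and a gene called lower or higher passed it. The self-test ran this fit on simulated data. The exact permutation test for single genes was two-sided. Folds and percentages refer to intensity + 16, which understates changes of dim genes. For counts, the probe set with the highest mean stood for a gene.

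Symbols come from the platform annotation, updated through a RefSeq gene table that also gave chromosome arms and gene order. It names 1 gene for 13647 probe sets. *Bx* and the *Tsf1* transcripts were named from the study's supplementary table, which lists transcripts with altered expression in these same arrays. No column of the authors' own comparisons was used.

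Genes are named by a rule: all members with every probe set, the genes of each other list past the threshold or otherwise up to 3 with the smallest F-test p, and the 5 probe sets most like each of 3 members. *Lsp2*, *Fbp1*, *Fbp2*, *fh*, *mfrn*, *Zip99C*, *Alas*, *SdhB*, *psh*, *Hayan* and the other genes near *Tsf1* were chosen for their place or role. The members, lists and tests were chosen with earlier results of these data known. The number of arrays limits the precision. As alternatives, the pseudocount was set to 1 or 64, arrays were quantile normalized or centred on their medians, low values were filtered out, the trend was dropped, replicate numbers served as a block, each fit was limited to the genotypes it compared, single arrays were left out, the methods' t-test and ANOVA were run, spike-in intensity was added as a covariate, the arrays with the most accessory gland transcripts were left out, and every probe set was counted.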

Additional observations from a re-analysis of the deposited data

Results flagged for a closer look

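The mutants differed from each other on 3 genes named for their lists, by limma's test of *EP1306* versus *BxJ*. *Ciao1*, the iron-sulfur cluster factor, had a log2 difference of -0.55 (standard error 0.07, adjusted p = 0.00801), and all 3 *EP1306* arrays lay below all 3 *BxJ* arrays. The call held in 9 of 9 fits that left out 1 array. *Prx6c*, the peroxiredoxin gene, had a difference of 0.73 (standard error 0.11, adjusted p = 0.0215), with all *EP1306* arrays above all *BxJ* arrays. It kept its call in 5 of 9 such fits and lost it without *BxJ* replicate 1 or 2 or *EP1306* replicate 1 or 3, with adjusted p up to 0.0900. It also lost it with the replicate number as a block (adjusted p = 0.0609), without the 3 arrays richest in accessory gland transcripts (adjusted p = 0.0957) and by the methods' t-test after Benjamini-Hochberg (adjusted p = 0.211). *Act88F*, an actin gene of flight muscle on the list of muscle markers, read 2459, 2481 and 2698 in *EP1306*, against 3872, 4503 and 4880 in *BxJ* and 4240, 4625 and 4704 in *w;iso*. Its difference between the mutants was -0.79 (standard error 0.09, limma adjusted p = 0.00466). *Act88F* was also called lower in *EP1306* than in *w;iso*, with a log2 difference of -0.82 (limma adjusted p under 0.05).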

How the results depend on the processing

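The sign of the *Tsf1* difference was the same in 21 of 21 alternatives for each mutant, from 0.60 to 0.83 in *BxJ* and 0.70 to 0.92 in *EP1306*, and the call held in 18 and 19 of them. These counts take in the methods' t-test unadjusted, where an unadjusted p under 0.05 counted as a call. In *BxJ* the count of iron handling genes called, 1 as reported, was 0 with the spike-in covariate, 0 in a fit of only the genotypes compared (*Tsf1* limma adjusted p = 0.0600) and 0 by the methods' t-test after Benjamini-Hochberg (adjusted p = 0.321). In *EP1306* the count of 1 was 0 without the 3 accessory gland-rich arrays (*Tsf1* limma adjusted p = 0.0542), 0 by the methods' t-test after Benjamini-Hochberg (adjusted p = 0.201) and 2 by that test unadjusted, and it ran from 1 to 2 over the fits that left out 1 array, with 2 without control replicate 1. Between the mutants it was 1 by the methods' t-test unadjusted, and over the genotypes 2 by their ANOVA unadjusted and 1 to 2 over the fits that left out 1 array. The wider iron list had 3 genes called in *BxJ* by the unadjusted t-test, against 0 as reported. In *EP1306* it had 3 unadjusted, 0 after Benjamini-Hochberg and 0 with the spike-in covariate, between the mutants 4 unadjusted and 0 after Benjamini-Hochberg, and 4 by the unadjusted ANOVA, each against 1 as reported. The cause was not tested.

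Over all probe sets, the 54 calls in *BxJ* were 5 with the spike-in covariate, 116 with the filter, 15 in a fit of only the genotypes compared, and 1936 and 0 by the methods' t-test unadjusted and adjusted, and ran from 21 to 127 over the fits that left out 1 array. The 214 in *EP1306* were 49, 381, 88, 1199 and 11 under the same settings, 35 without the accessory gland arrays, and 103 to 247 over the left-out arrays. The 230 between the mutants were 153 in a fit of only those genotypes, 1660 and 25 by the t-test, 130 without the accessory gland arrays, and 113 to 231. The 279 by the F-test were 147 with the covariate, 438 with the filter, 1896 and 98 by the ANOVA, 121 without the accessory gland arrays, and 154 to 326. The count moved by over 1.5 times without *BxJ* replicate 1, *EP1306* replicate 2 or 3 or any 1 control array in *BxJ* (127 without control replicate 1), without any 1 array but *BxJ* replicate 3 or control replicate 1 in *EP1306*, without replicate 1 or 2 of *BxJ* or 2 or 3 of *EP1306* between the mutants, and without *BxJ* replicate 1, control replicate 2 or any 1 *EP1306* array for the F-test. Quantile normalization turned the split in *EP1306* to 127 higher and 115 lower, against 85 and 129 as reported, and median centring turned that between the mutants to 127 and 104, against 104 and 126. *DptB* kept its call in 17 of 21 alternatives in *BxJ* and 13 of 21 in *EP1306*, counting the unadjusted t-test at p under 0.05. It lost it in *BxJ* and *EP1306* with the spike-in covariate (limma adjusted p = 0.210 and 0.214), without the accessory gland-rich arrays (0.0526 and 0.213), in fits of only the genotypes compared (0.0808 and 0.0657) and by the methods' t-test after Benjamini-Hochberg (0.332 and 0.418), and in *EP1306* also without *EP1306* replicate 1 or 3 or control replicate 2 or 3 (up to 0.0790).

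Over all probe sets, arrays of different genotypes with the same replicate number did not deviate together. Their correlations ran from -0.38 to 0.29, with 3 of 9 pairs over 0.1, and 2 of 9 arrays correlated best with their own number. For *Tsf1*, its second probe set, *Drs* and *DptB*, however, replicate 1 was the brightest array in every genotype. With the replicate number as a block, 70 probe sets were called in *BxJ*, 256 in *EP1306* and 228 between the mutants. The iron handling counts were 1, 1 and 0, as reported, and the second *Tsf1* probe set passed the test (adjusted p = 0.0412 in *BxJ* and 0.0123 in *EP1306* from limma), as it did in *EP1306* with the filter (0.0376). The *Prx6c* difference between the mutants no longer passed (limma adjusted p = 0.0609). Dim probe sets, among them *Fer3HCH*, carry no usable level.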
